A study of Mus musculus with 3 samples.

Results

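The interleukin-12 family subunits are 5 genes, Il12a, Il12b, Il23a, Il27 and Ebi3, chosen by gene symbol out of 55536 mouse genes in the deposited tables. They were measured in chromatin-associated RNA of bone marrow-derived macrophages from mice of strain C57BL/6J. The cells, which are macrophages grown from marrow in culture, had been exposed for 50 min to lipid A at 100 ng/ml; lipid A is the part of bacterial lipopolysaccharide that Toll-like receptor 4 recognises. All 3 libraries were made from ribosomal RNA-depleted RNA and formed 1 group, with no sex or age of the animals recorded and the same donor code for each. Starting RNA was 1000 ng in replicate 1, 250 ng in replicate 2 and 500 ng in replicate 3. Untreated cells were not analysed here, so the values describe which subunit genes were represented on chromatin at this time and how far the libraries differed, not which genes were induced.

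Cytokines of this family are secreted heterodimers, each built from an alpha subunit that resembles interleukin-6 and a beta subunit that resembles a soluble cytokine receptor. IL-12 pairs p35 (Il12a) with p40 (Il12b), IL-23 pairs p19 (Il23a) with the same p40, IL-27 pairs p28 (Il27) with EBI3 (Ebi3), and IL-35 pairs p35 with EBI3. Macrophages and dendritic cells are known sources of IL-12, IL-23 and IL-27 after Toll-like receptor stimulation, and these cytokines act on T cells and natural killer cells through Janus kinases and STAT factors. RNA on chromatin holds transcripts that are still being made or have not yet been released, so it includes intron-containing forms. The values used here cover annotated transcripts only. Intron sequence therefore enters them only where an annotated transcript holds it, as in the retained-intron transcripts of Il12a and Il23a.

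The 5 genes lie on 5 chromosomes of GRCm38 (mm10) in the GENCODE M21 annotation, and all are protein-coding. Il12b (ENSMUSG00000004296.14) spans 13.971 kb at chr11:44400063-44414033 on the plus strand, with 2 transcripts. Ebi3 (ENSMUSG00000003206.7) spans 4.383 kb at chr17:55952640-55957022 on the plus strand, with 1 transcript. Il23a (ENSMUSG00000025383.2) is the shortest, 2.614 kb at chr10:128296139-128298752 on the minus strand, with 2 transcripts of which 1 is a retained-intron form. Il27 (ENSMUSG00000044701.5) spans 5.932 kb at chr7:126589010-126594941 on the minus strand, with 1 transcript. Il12a (ENSMUSG00000027776.12) spans 7.904 kb at chr3:68690644-68698547 on the plus strand, with 6 transcripts.

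**Figure D1:**
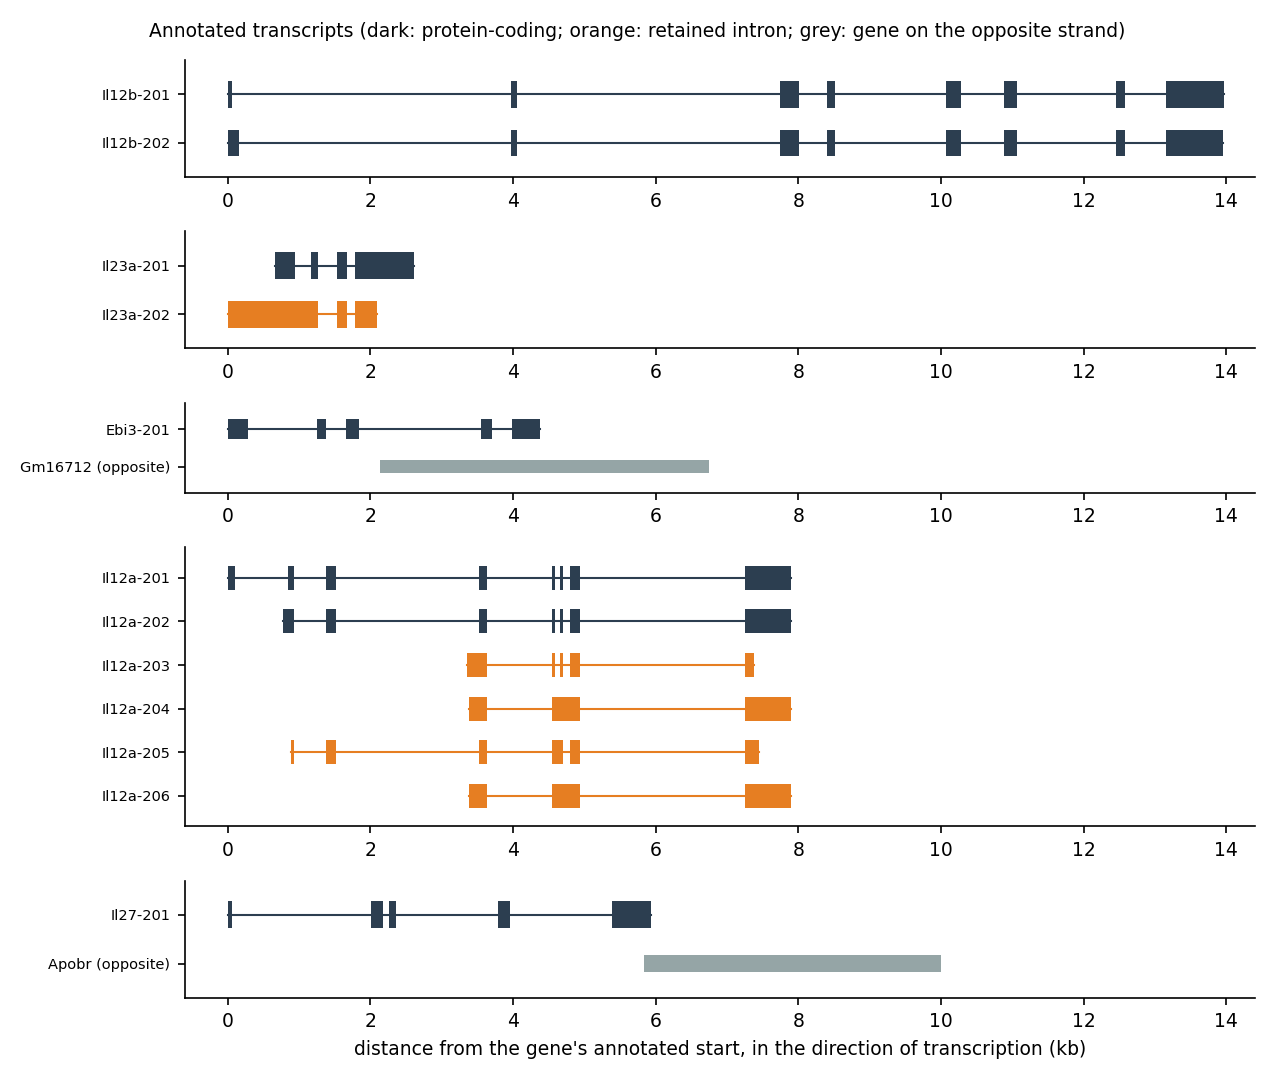
Annotated transcripts of the 5 subunit genes, drawn to scale as distance in kb from each gene's annotated start in the direction of transcription. Boxes are exons, dark for protein-coding and orange for retained-intron transcripts; grey bars are genes on the opposite strand, which overlap the ends of Ebi3 and Il27.

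RefSeq promoter sequence (GRCm38.p6) was on hand for 3 of the 5 genes, Il12b, Ebi3 and Il12a. The 250 bases before the start are shown for Il12b, whose level differed most between the libraries, and for Ebi3, the gene with a motif match; Il12b lies at chr11:44399813-44400062 and Ebi3 at chr17:55952373-55952622, both on the plus strand. Capitals mark a match to the NF-kB consensus.
Il12b: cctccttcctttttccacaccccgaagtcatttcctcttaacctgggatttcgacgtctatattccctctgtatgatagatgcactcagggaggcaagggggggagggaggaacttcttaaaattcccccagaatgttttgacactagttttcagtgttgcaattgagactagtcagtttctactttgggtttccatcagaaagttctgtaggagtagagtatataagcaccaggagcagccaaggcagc
Ebi3: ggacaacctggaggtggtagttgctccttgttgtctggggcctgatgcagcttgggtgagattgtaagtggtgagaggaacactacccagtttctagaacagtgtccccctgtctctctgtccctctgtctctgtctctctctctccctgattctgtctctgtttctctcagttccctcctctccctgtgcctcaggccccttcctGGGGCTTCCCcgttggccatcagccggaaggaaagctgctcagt

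Windows from 250 bases before to 50 after the start were searched on both strands for 6 motifs. The NF-kB consensus was found in the Ebi3 window, first at position -44 and again at position 15 relative to the start, and 8.46% of 32851 promoters of the same length held it. No match to that consensus, to AP-1 (TGANTCA, in 7.81% of promoters), C/EBP (TTNCNNAA, 40.7%), the interferon response motif (GAAANNGAA, 8.56%), PU.1 (GAGGAAG, 13.6%) or TATAAA (13.6%) was found in the Il12b window or in either Il12a window, and Ebi3 held none of the other 5. These are matches of letters in a window and not measurements of binding. A site that departs from the searched letters is missed, so a window without a match is not shown to lack such sites.

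The libraries held 10496703, 17687379 and 14806118 expected counts on mouse genes in replicates 1, 2 and 3. Expected counts are estimated counts that need not be whole, and TPM scales them by transcript length to a fixed sum, so TPM is the scale used to set levels of different genes side by side. All 9 macrophage markers, such as Csf1r and Adgre1, had at least 10 expected counts in each library, with a summed 724, 711 and 740 TPM in replicates 1, 2 and 3. Of 38 markers of dendritic, T, B and natural killer cells, neutrophils and fibroblasts, 5 reached that limit, 13 were at 0 TPM and the highest averaged 1.52 TPM in the first quantification. The second gave higher values for some, such as 18.01 TPM for the T cell gene Cd3d, 3.57 TPM for Ebf1 and 2.63 TPM for Ms4a1, both B cell genes, named after their values were seen. The dendritic cell list, the other usual source of these cytokines, summed to 3.19, 2.70 and 2.99 TPM in replicates 1, 2 and 3, with 4 of 9 markers at the limit and Cd209a at 0.

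Among the beta subunits, Il12b had the highest mean level of the family and by far the widest spread. Il12b, the p40 chain shared by IL-12 and IL-23, had 51.15, 3.43 and 16.9 TPM in replicates 1, 2 and 3, from 1123, 143 and 474 expected counts. Its mean of 23.8 ± 24.6 TPM (SD, n = 3) lay above 82.6% of 9665 protein-coding genes with at least 10 counts in each library, and its SD exceeded its mean. Ebi3, the beta chain of IL-27 and IL-35, had 13.58, 7.25 and 15.49 TPM in replicates 1, 2 and 3, from 170.26, 170.39 and 244.36 expected counts. Its mean of 12.1 ± 4.31 TPM (SD, n = 3) lay above 69.9% of the same genes. Replicate 2 was the lowest library for both beta chains. The TPM of Il12b differed 14.9-fold between its highest and lowest library and that of Ebi3 2.14-fold. Protein-coding genes held 22.4%, 16.4% and 20.4% of TPM in replicates 1, 2 and 3. With the correction for composition (TMM) used below, the ranges were 10.7-fold for Il12b and 1.70-fold for Ebi3.

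Of the alpha subunits, Il23a and Il27 were detected in every library and Il12a was close to 0. Il23a, the p19 chain of IL-23, had 7.88, 4.06 and 10.63 TPM in replicates 1, 2 and 3, from 128, 128 and 220 expected counts, a mean of 7.52 ± 3.30 TPM (SD, n = 3). Il27, the p28 chain of IL-27, had 7.05, 2.04 and 3.71 TPM in replicates 1, 2 and 3, from 76, 41 and 50 expected counts, a mean of 4.27 ± 2.55 TPM (SD, n = 3). Il23a thus stood above 59.9% and Il27 above 46.6% of detected protein-coding genes, near the middle of the range.

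Il12a, the p35 chain of IL-12 and IL-35, had 2, 0 and 1 expected counts in replicates 1, 2 and 3, or 0.30, 0 and 0.06 TPM. The 3 counts over all libraries have an exact Poisson 95% interval of 0.619 to 8.77, against 1740 counts of Il12b. In replicate 2, where Il12a had 0 counts, up to 3 counts (0.136 TPM) would be compatible with that value, so Il12a RNA is not shown to be absent. Counts came from alignment to annotated transcripts, so reads from introns outside them were not counted. Transcription of Il12a was therefore not measured directly. None of these counts was given to the coding transcript Il12a-201. In replicate 1 the 2 counts were 1 each on 2 retained-intron transcripts, Il12a-203 and Il12a-205. In replicate 3 the 1 count was on the coding transcript Il12a-202. The second quantification instead gave Il12a-202 0 counts in replicate 3. It put 1.775 estimated counts on Il12a-204 and 0.225 on Il12a-206 there, both retained-intron transcripts, so the assignment in replicate 3 is not settled.

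**Figure D2:**
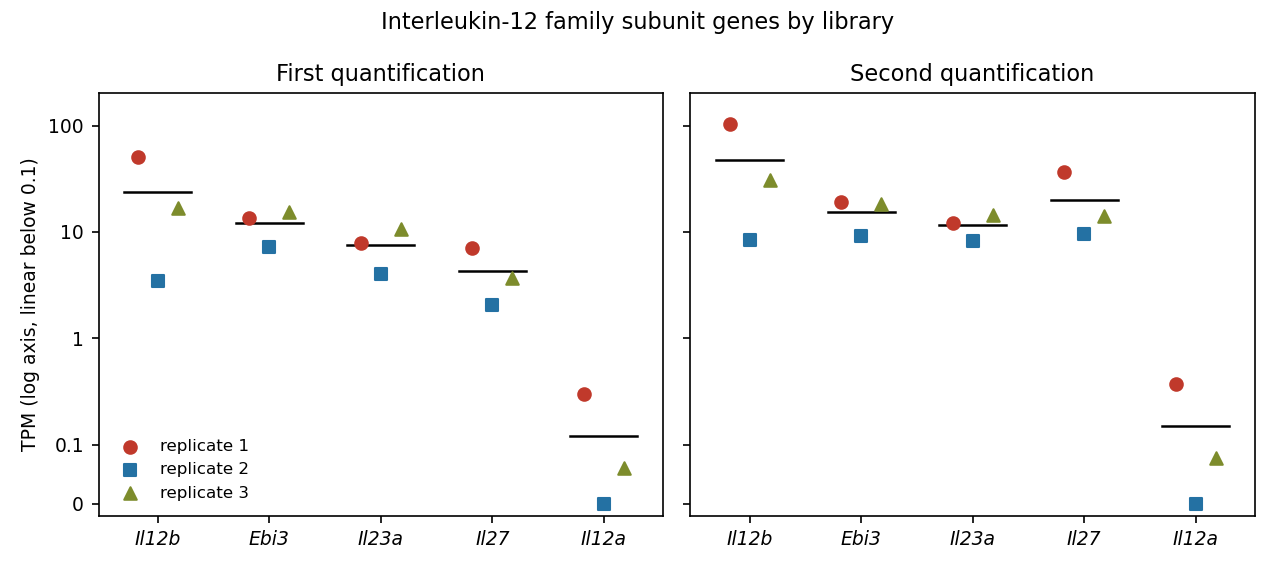
TPM of each subunit gene (log axis, linear below 0.1) in replicates 1 to 3, in the first quantification on the left and the second on the right. Points are libraries and bars are means over the 3 libraries; in the first quantification Il12b runs from 3.43 to 51.15 TPM, while Il12a stays at or below 0.30 TPM.

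The order of levels within a library was the same in replicates 1 and 3: Il12b, Ebi3, Il23a, Il27 and Il12a from high to low. In replicate 2 Il12b stood below Ebi3 and Il23a, and the other 4 genes kept their order. As a mean log2 ratio within libraries (0.1 TPM added), Il12b over Ebi3 was 0.32 ± 1.49 (SD, n = 3), so these neighbours in the order did not differ beyond their spread. Ebi3 over Il23a was 0.71 ± 0.15 on the same scale, with Ebi3 higher in 3 of 3 libraries by 1.72-, 1.79- and 1.46-fold in replicates 1, 2 and 3. Il23a over Il27 was 0.87 ± 0.67, with Il23a higher in 3 of 3 libraries by 1.12-, 1.99- and 2.87-fold. With 3 libraries an exact two-sided sign-flip test cannot give a p below 0.25, so no test is given for these ratios.

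Of the partner chains, Il12a stood far below both of its partners, whereas the ratio for IL-23 varied with the library and that for IL-27 with the quantification. For IL-12, Il12b was 170.5 times Il12a in TPM in replicate 1 (exact binomial 95% interval 47.1 to 1410, counting error only) and 282 times in replicate 3 (50.3 to 11150), and at least 25.3-fold higher in replicate 2, where Il12a was set to 3 counts. For IL-35, Ebi3 was 45.3 times Il12a in replicate 1 (12.3 to 377), 258 times in replicate 3 (45.9 to 10240) and at least 53.4-fold higher in replicate 2. For IL-23, Il12b over Il23a was 6.49, 0.845 and 1.59 in replicates 1, 2 and 3, a mean log2 ratio of 1.04 ± 1.495 (SD, n = 3). The shared chain was higher than p19 in replicates 1 and 3 but not in replicate 2, and the mean did not exceed the spread. For IL-27, Ebi3 over Il27 was 1.93, 3.55 and 4.18 in replicates 1, 2 and 3, a mean log2 ratio of 1.58 ± 0.57 (SD, n = 3).

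The excess of Ebi3 over Il27 did not hold in the second quantification, the deposited transcript table made directly from the read files. Il27 had 36.5, 9.47 and 14.1 TPM there in replicates 1, 2 and 3, from 456, 240 and 271 estimated counts, which is 6.00, 5.86 and 5.42 times its counts in the first quantification. Ebi3 had 18.9, 9.22 and 18.3 TPM in the second quantification, so that Ebi3 over Il27 became 0.518, 0.973 and 1.29 in replicates 1, 2 and 3, with a mean log2 ratio of -0.21 ± 0.67 (SD, n = 3). The other subunit genes moved less: mean levels in the second quantification were 47.2 TPM against 23.8 TPM in the first for Il12b, 11.6 against 7.52 for Il23a, 15.5 against 12.1 for Ebi3 and 0.15 against 0.12 for Il12a. Il12b remained the highest gene in replicates 1 and 3, and Il27 rather than Ebi3 was highest in replicate 2. Where Il27 belongs among the detected subunits is therefore set by the quantification used, whereas Il12a was lowest in every library of both.

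Differences between libraries were taken on log2 CPM scaled by TMM (counts scaled to a common library size after a correction for composition, 0.5 added to each count), for genes with a mean of at least 10 expected counts. All subunit genes but Il12a passed, 4 of 5, among 13262 genes tested. With 1 library on a side there is no test: a gene was called when 1 library stood at least 2-fold from the mean of the other 2. Over all genes the highest and lowest library differed by a median of 1.53-fold.

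Il12b had 8.75 CPM in replicate 2, against 93.5 CPM in replicate 1 and 34.2 CPM in replicate 3, 6.47-fold below the mean of those 2 libraries (log2 difference -2.69). Only 0.143% of the genes tested lay lower still in that library. Il12b was also 5.41-fold higher in replicate 1 than the mean of the other 2 libraries (log2 difference 2.43), with 0.324% of genes higher still. The 3 libraries were separated by more than counting error: replicate 1 over replicate 2 was 10.7 (exact binomial 95% interval 9.01 to 12.9), replicate 3 over replicate 2 was 3.92 (3.25 to 4.76) and replicate 1 over replicate 3 was 2.74 (2.46 to 3.05). The biological coefficient of variation of Il12b, edgeR's estimate of spread beyond counting noise, was 0.575, above that of 99.4% of genes and against a median of 0.258. Its library order, replicate 1 over 3 over 2, is also the order of starting RNA; with 1 library per amount, library and starting RNA cannot be told apart, and in bulk RNA fewer cells making a transcript and less RNA per cell cannot be told apart either. The macrophage markers ran the other way in their median log2 difference, 0.34 in replicate 2 and -0.51 in replicate 1, although Msr1 stood at 0.155 in replicate 1. Of these 9 markers, 1 was called higher in replicate 2 and 1 lower in replicate 1, where 2.21% and 6.1% of all genes were. The 3 tested fibroblast markers of 5 had 0 to 28 counts in a library (Col1a1 had 0, 28 and 21 in replicates 1, 2 and 3). All were called higher in replicate 2, where 2.21% of all genes were, and lower in replicate 1, where 6.1% were. They passed the filter on mean counts only through replicates 2 and 3, so these calls follow from the filter and are no result. Of the 4 tested dendritic cell markers of 9, 1 was called, Zbtb46, higher in replicate 1, where 6.42% of all genes were. Its log2 differences followed the direction of Il12b, 1.17 in replicate 1 and -0.63 in replicate 2, as did those of Clec9a (0.24 and -0.02). Clec10a (-0.535 and 0.31) and Xcr1 (-0.41 and 0.23) went the other way. The median of the 4 was -0.08 in replicate 1 and 0.10 in replicate 2. The part of these markers in the result was not tested.

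The other subunit genes differed far less. Il27 had 6.37 CPM in replicate 1, against 2.53 CPM in replicate 2 and 3.64 CPM in replicate 3, and was 2.10-fold higher in replicate 1 than the mean of the other 2 libraries. Replicate 1 over replicate 2 was 2.53 for Il27 (1.71 to 3.797), while replicate 3 over replicate 2 was 1.44 with an interval that includes equality (0.935 to 2.24). Il23a had 15.9 CPM in replicate 3, against 10.7 CPM in replicate 1 and 7.83 CPM in replicate 2, a ratio of 2.03 between replicates 3 and 2 (1.63 to 2.55). Ebi3 had 17.6 CPM in replicate 3, against 14.2 CPM in replicate 1 and 10.4 CPM in replicate 2, a ratio of 1.70 between replicates 3 and 2 (1.39 to 2.08). The biological coefficients of variation were 0.339 for Il27, 0.287 for Il23a and 0.258 for Ebi3, above 90.1%, 72.5% and 49.9% of genes, so Ebi3 lay at the middle of all genes.

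Set against all genes, 1 of the 4 tested subunit genes, Il12b, was at least 2-fold lower in replicate 2, where 4.07% of genes were. The log2 differences in replicate 2 were -0.93 for Il27, -0.74 for Il23a and -0.61 for Ebi3, so all 4 were below 0 there, with 0.00 as the median of all genes. In replicate 1, 2 of 4 were at least 2-fold higher, Il12b and Il27, where 6.42% of genes were. The highest and lowest library were at least 2-fold apart for 3 of 4, Il12b, Il27 and Il23a, where 22.2% of genes were. For Il23a this call rests on the first quantification, since the range was 1.56-fold in the second. For Il27 the call in replicate 1 is lost without replicate 2, since replicate 1 over replicate 3 was 1.76 (1.21 to 2.56).

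**Figure D3:**
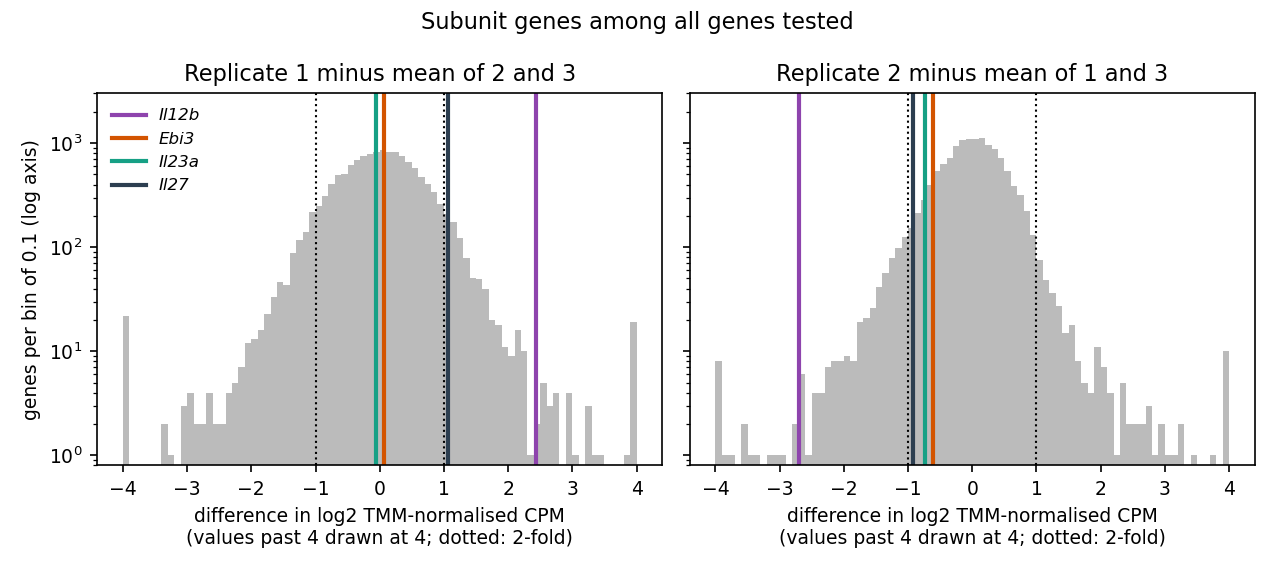
Histograms, over 13262 genes, of the difference in log2 TMM-normalised CPM between replicate 1 (left) or replicate 2 (right) and the mean of the other 2 libraries, with the number of genes on a log axis. Coloured lines are the 4 tested subunit genes and dotted lines mark 2-fold; Il12b lies at 2.43 in replicate 1 and at -2.69 in replicate 2, in both tails.

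The 2 transcripts of Il12b encode the same protein and differ in the first exon, which is longer in Il12b-202, and in the 3′ end. Il12b-201 took 90.5%, 96.8% and 94.2% of the gene's TPM in replicates 1, 2 and 3, and Il12b-202 took 9.48%, 3.21% and 5.80%. Il12b-202 had 111.17, 4.8 and 28.87 expected counts there. The error of assigning reads to it (posterior SD) was 30.45, 5.51 and 15.03 counts, larger than the count itself in replicate 2. The share of Il12b-202 averaged 6.16 ± 3.15% in the first quantification and 27.9 ± 2.21% in the second (SD, n = 3 each). The share of the longer first exon thus depended on the quantification more than on the library.

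Il23a had a sizeable share of its signal on a transcript that keeps an intron. Il23a-202, annotated as a retained-intron transcript, starts upstream of the coding transcript and reads through the first intron of Il23a-201. Its last exon stops at position 128296662, while that of Il23a-201 runs on to 128296139. Reads on the upstream stretch, on the intron or on this longer 3′ end set the 2 transcripts apart, and they were not counted separately. The share of Il23a-202 is therefore no measure of intron retention alone. Il23a-202 took 20.5%, 28.8% and 21.8% of the gene's TPM in replicates 1, 2 and 3, from 32.4, 44.6 and 59.3 expected counts. Its share averaged 23.7 ± 4.46% in the first quantification and 43.7 ± 12.9% in the second (SD, n = 3 each), and was highest in replicate 2 in both. The retained intron has 219 bases at chr10:128297592-128297810 (GRCm38, minus strand), begins with GT, ends with AG and has 57.1% GC. It is shown here, in lower case, because it is the stretch inside the coding transcript's body that Il23a-202 holds and Il23a-201 lacks. Capitals are 20 exonic bases on each side.
Il23a intron 1: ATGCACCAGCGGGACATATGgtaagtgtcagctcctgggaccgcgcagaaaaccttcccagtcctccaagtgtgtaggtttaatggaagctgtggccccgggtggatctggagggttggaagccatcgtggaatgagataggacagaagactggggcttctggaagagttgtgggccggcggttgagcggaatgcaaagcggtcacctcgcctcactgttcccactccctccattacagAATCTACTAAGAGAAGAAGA

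Ebi3 and Il27 overlap genes on the opposite strand, and the strand setting of the counting was not given in the sources used here, so their values carry that uncertainty. The antisense gene Gm16712 shares 270 exonic bases with Ebi3, 23.4% of its exonic length. Gm16712 had 35.5, 12.3 and 23.4 TPM in replicates 1, 2 and 3, above Ebi3 in each library, and its log2 difference in replicate 2 was -0.81, beside -0.61 for Ebi3. Apobr, which encodes a receptor for apolipoprotein B48 remnants, shares 103 exonic bases with Il27, 10.1% of its exonic length. Apobr had 2596, 3123 and 3492 expected counts in replicates 1, 2 and 3, many times the 41 to 76 counts of Il27, and a log2 difference of -0.29 in replicate 2. How far reads from these neighbours entered the values of Ebi3 and Il27 was not tested.

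The nearest genes beyond the overlaps differed less between libraries than Il12b. Il12b has no gene close by: Ublcp1 lies 40537 bases downstream with 5.62, 3.20 and 4.65 CPM in replicates 1, 2 and 3, and Gm12155, 12788 bases on the other side, had 0 counts. Stat2, which encodes a signalling factor of type I interferon, lies 3289 bases from Il23a and had 130, 148 and 148 CPM, lowest in replicate 1; Il23a was lowest in replicate 2 in the first quantification and in replicate 1 in the second (12.1, 13.0 and 18.8 CPM). On its other side Gm23241 lies 666 bases away and had 0 counts. Next to Il27 lie Cln3, a lysosomal membrane protein gene, with 204, 204 and 215 CPM, and Nupr1, a stress-response gene, with 39.7, 17.1 and 29.2 CPM. Beside Ebi3 lie Yju2, a splicing factor gene, with 21.8, 20.1 and 23.8 CPM, and Zfp119b, a zinc finger gene, which was called lower in replicate 2 (2.21, 1.13 and 2.49 CPM, log2 difference -1.05). The neighbours of Il12a, Schip1 and Gm10040, had at most 8 expected counts in a library in the first quantification, but 57.5 to 183 (Schip1) and 128 to 187 (Gm10040) estimated counts in the second.

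Mean levels of the receptor and signalling genes of the family ran from 0.01 TPM for Il23r to 64.4 TPM for Jak1 in the first quantification. The kinases Jak1, Jak2 and Tyk2 averaged 64.4, 35.3 and 29.2 TPM, and the transcription factor Stat3 averaged 33.9 TPM. Il6st, the gp130 chain that IL-27 shares with interleukin-6, averaged 20.9 TPM. Lower were Il12rb2, the second chain of the IL-12 receptor, which averaged 1.71 TPM, and Stat4, the main STAT downstream of IL-12, which averaged 1.37 TPM. Il12rb1, the receptor chain shared by IL-12 and IL-23, and Il27ra, the IL-27 receptor, averaged 0.137 TPM each, and Il23r, the chain particular to IL-23, 0.01 TPM. The second quantification gave 2.98 TPM for Il12rb1 and 3.37 TPM for Il27ra, so their low level depended on the table used. Of these 10 genes, 7 had at least 10 counts in each library, and 0 of 7 tested were called higher or lower in replicate 1 or 2, with a median log2 difference of -0.01 in replicate 2. Over all genes the shares called were 6.42% higher and 6.1% lower in replicate 1, and 2.21% higher and 4.07% lower in replicate 2, so 0 of 7 is no result about these genes.

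**Figure D4:**
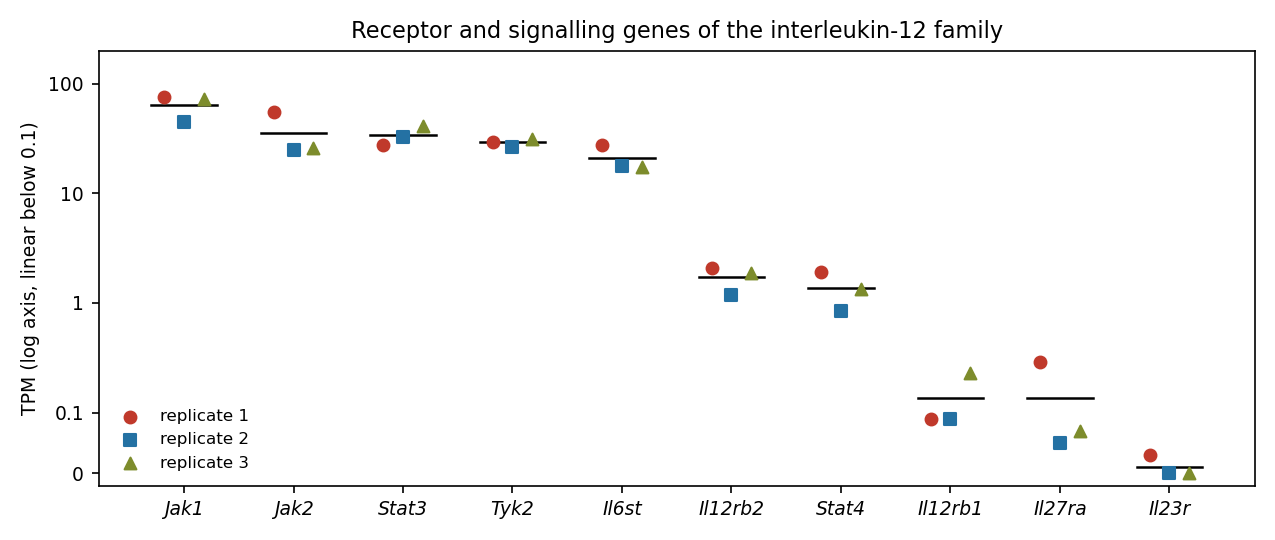
TPM (log axis, linear below 0.1) of 10 receptor and signalling genes of the family in replicates 1 to 3 of the first quantification, ordered by their means (bars). Kinases, Stat3 and Il6st average 20.9 TPM or more, while the receptor chains Il12rb1, Il27ra and Il23r average 0.137 TPM or less.

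Transcription factors known to act at these genes in myeloid cells had a median of 31.1 TPM, against mean levels of 0.12 to 23.8 TPM for the subunit genes. Of 21 such genes, 20 had at least 10 counts in each library. The highest were Irf1, an interferon-regulatory factor, at 371 TPM, Nfkb1, which encodes an NF-kB subunit, at 269 TPM, and Nfkbiz, an atypical IkB protein, at 249 TPM. The lowest was Batf3, an AP-1 family factor, at 2.46 TPM. Of the 21 tested, 1 was called lower in replicate 2 against 4.07% of all genes, and 1 was called higher, where 2.21% of genes were. Atf3, a stress-induced repressor, was the lower one, with 124 CPM in replicate 2 against 281 CPM in replicate 1 and 225 CPM in replicate 3. Batf3 was the higher one, with 2.71 CPM in replicate 2 against 0.791 and 1.41 CPM in replicates 1 and 3. In replicate 1, Batf3 and the AP-1 gene Fos were called lower, where 6.1% of genes were; Fos had 11.6 CPM in replicate 1 against 28.2 and 33.2 CPM in replicates 2 and 3. The median log2 difference of the 21 genes in replicate 2 was 0.02, with members on both sides of 0. Rel, an NF-kB subunit gene, and Maf, named here after their values were seen, had log2 differences of -0.62 and -0.52 in replicate 2. Like Atf3, both had the library order of Il12b, replicate 1 over 3 over 2, but neither was called (1.54- and 1.43-fold lower). Nfil3 had a log2 difference of -0.63 in replicate 2 with another order, replicate 3 over 1 over 2. The share of all genes with the order of Il12b was not counted. Rel had 416 CPM in replicate 2 against 692 CPM in replicate 1 and 592 CPM in replicate 3.

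Other secreted cytokines gave the closest comparison. Of 19 genes, 15 had at least 10 counts in each library. In the first quantification the highest were Il1b at 682 TPM, Tnf at 345 TPM and Il1a at 159 TPM, all well above Il12b. The lowest was Ctf1, with 0 counts. Il15 averaged 42.1 TPM in the first quantification but 288 TPM in the second, where it stood above Il1a at 275 TPM. Of 15 tested, 3 were called lower in replicate 2, against 4.07% of all genes. Il6 had 1.25 CPM in replicate 2 against 7.87 CPM in replicate 1 and 5.52 CPM in replicate 3, from 20 counts in replicate 2, and was 5.27-fold lower there. Ifnb1, the interferon beta gene, had 3.99 CPM in replicate 2 against 9.45 and 17.9 CPM in replicates 1 and 3, and was 3.26-fold lower. Il15 lay at the limit, 2.00-fold lower with 20.1 CPM in replicate 2 against 42.3 and 38.2 CPM. Il6 was also the 1 gene of 15 tested called higher in replicate 1, where 6.42% of all genes were. That count is near the share of all genes and is no result about the list. The median log2 difference of the 15 genes in replicate 2 was -0.39, between 0.00 for all genes and -2.69 for Il12b.

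Genes were then ranked by how closely their pattern over the 3 libraries followed that of each subunit gene. The measure was the largest gap, over the 3 libraries, between log2 CPM values centred on each gene's own mean, among 6036 protein-coding genes with a mean of at least 100 counts (6037 for Il27); 3 points are too few for a correlation. Il12b had few counterparts: 1 gene, Rbpjl, lay within 0.25, at a gap of 0.18, with 74.3, 5.94 and 21.9 CPM in replicates 1, 2 and 3. The next were Gm28048 at 0.68 and Cxcl10, a chemokine gene induced by interferon, at 0.74 with 119, 20.8 and 109 CPM. For the other subunit genes, 61 genes lay within 0.25 of Il23a, 152 of Il27 and 288 of Ebi3. The measure uses the same 3 values that placed Il12b in both tails of all genes. Few close genes follow from that position and are no separate result about Il12b. The closest to Il23a were Mapkapk2, the p38 MAP kinase-activated kinase 2 gene, at 0.057, Acsl3, a long-chain acyl-CoA synthetase gene, at 0.074, and Nabp1 at 0.086. The closest to Il27 were Rcsd1 at 0.006, the peroxisomal gene Pex13 at 0.016 and Glce, an enzyme of heparan sulfate synthesis, at 0.030. The closest to Ebi3 were Whamm, an actin nucleation gene, at 0.030, Flrt2 at 0.033 and Fam53c at 0.038.

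Among the subunit genes themselves, Ebi3 and Il23a were the most alike, with a gap of 0.17. Il27 lay 0.67 from Ebi3 and 0.75 from Il23a. Il12b was the farthest from each, 1.18 from Il27, 1.58 from Ebi3 and 1.66 from Il23a, so the 2 chains of IL-23 had the largest gap of the 6 pairs. These gaps restate the wide spread of Il12b over the libraries.

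**Figure D5:**
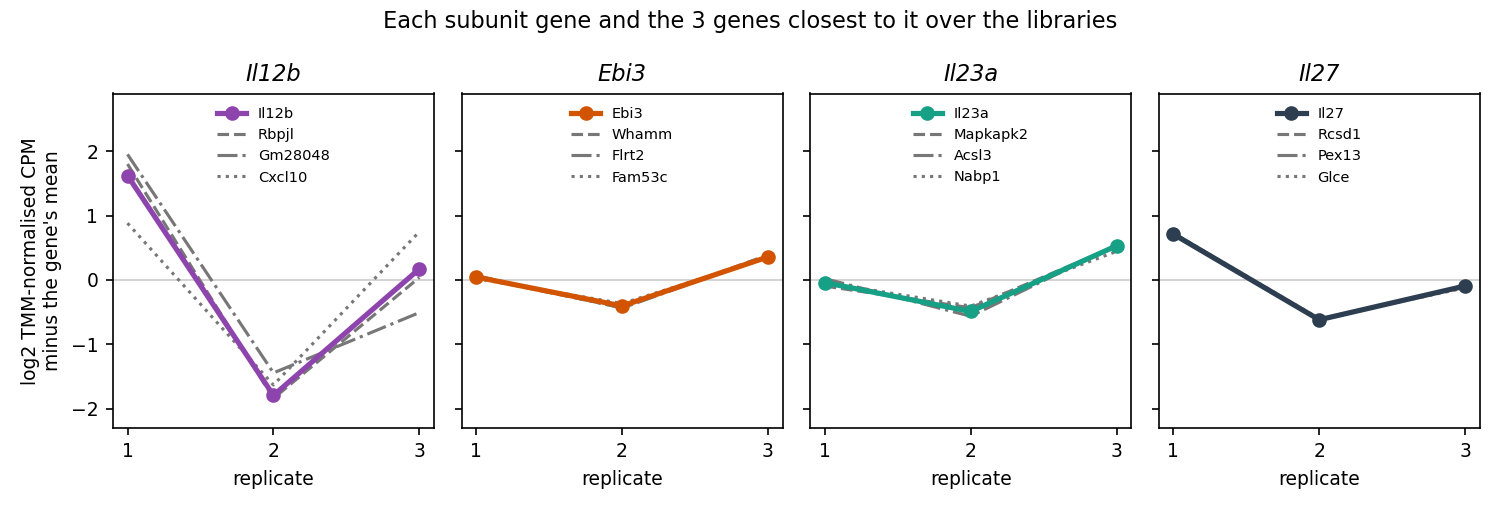
Log2 TMM-normalised CPM minus each gene's own mean in replicates 1, 2 and 3, for each of the 4 tested subunit genes (coloured) and the 3 protein-coding genes closest to it (grey); lines join the values of 1 gene and imply no order. The grey lines lie on the coloured one for Ebi3, Il23a and Il27, and spread around Il12b, whose next closest genes after Rbpjl have gaps of 0.68 and 0.74.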

How the data were processed

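The members were taken by gene symbol, and members, gene lists and alternatives were chosen with earlier results of these data known. Gene tables held expected counts and TPM, both made by the authors, per the headers of the files, from alignment to the transcriptome (mm10, GENCODE M21, per the deposited notes); they are the first quantification. The second quantification is a deposited transcript table of estimated counts and TPM, made directly from read files. The transcript tables of the first format gave isoform counts and TPM. Not given in the sources used here are the aligner, the software with its version and whether counting used strand. Rows that named no mouse gene, 1.28%, 0.427% and 0.383% of counts in replicates 1, 2 and 3, were left out.

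Expected counts were rounded, scaled by TMM in edgeR 4.0.16 (R 4.3.3) and fitted with an intercept-only design for the biological coefficient of variation; no p-value was made. Ratios of counts carry exact binomial and counts exact Poisson 95% intervals, which cover counting error only. Alternatives were DESeq2 1.42.0 size factors, library totals, no filter, the second quantification, 1 TPM added in place of 0.1, TPM scaled to protein-coding genes, and leaving out each library. A member of the receptor and signalling list and a member of the cytokine list are not reported here. Named genes were all subunit genes, all other receptor and signalling genes, the 3 highest and the lowest of the other lists with any called in replicate 1 or 2, all overlapping or nearest genes, and the 3 genes closest in pattern. The libraries share a donor code, so their spread may be technical.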

Additional observations from a re-analysis of the deposited data

How the results depend on the processing

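No paired analysis was possible because the libraries form 1 group. Of the mean levels, those scaled to protein-coding TPM were 0.546 for Il12a, 110.9 for Il12b, 37.4 for Il23a, 20.7 for Il27 and 60.3 for Ebi3, since the total is then smaller; the second quantification gave 11.6 for Il23a and 20.0 for Il27. Leaving out each library gave mean TPM of 0.03 to 0.18 for Il12a, 10.2 (without replicate 1) to 34.0 (without replicate 2) for Il12b, 5.97 to 9.26 for Il23a, 2.88 to 5.38 for Il27 and 10.4 to 14.5 for Ebi3. The mean log2 ratio of Ebi3 over Il27 reversed to -0.21 in the second quantification; the cause was not tested. With 1 TPM added, Il12b over Il12a was 3.85 and Ebi3 over Il12a 3.50. Leaving out each library gave 5.94 to 6.87 for Il12b over Il12a, 0.21 (without replicate 1) to 1.67 for Il12b over Il23a, 1.36 to 1.91 for Ebi3 over Il27 and 5.65 to 6.40 for Ebi3 over Il12a.

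Counts of genes at least 2-fold apart were 809 lower and 852 higher in replicate 1, and 540 lower and 293 higher in replicate 2. With library totals they were 336 and 1833 in replicate 1, and 814 and 185 in replicate 2. With no filter they were 2336 and 3877, and 3890 and 2528. The second quantification gave 1294 lower in replicate 1 and 448 higher in replicate 2. Leaving out a library gave 770 to 1038 lower and 770 to 1172 higher in replicate 1, and 349 (without replicate 1) to 1172 (without replicate 3) lower and 278 to 1038 (without replicate 3) higher in replicate 2. With library totals the biological coefficient of variation was 0.636 for Il12b, 0.404 for Il27 and 0.287 for Ebi3. The second quantification gave shares of 43.7% for Il23a-202 and 27.9% for Il12b-202. With library totals Il27 was also at least 2-fold lower in replicate 2 (log2 difference -1.09). Without replicate 1, Il23a was too (-1.02). No called difference of a subunit gene reversed under the alternatives run; without replicate 2, the difference of Il27 in replicate 1 was 0.81. With 41 to 76 counts, Il27 is the detected subunit gene whose values counting error limits most.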
